A study of Rattus norvegicus with 4 samples.

Results

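Selenoprotein messages were followed over 9 days of culture at 37 °C in ROE2 cells, an immortalized epithelial line from rat tongue. The set held Selenop, Gpx1, Gpx2, Gpx4, Txnrd1, Txnrd2, Selenow, Selenos and Selenok. These 9 genes were chosen by name with earlier results of the same 4 arrays known, so their differences between days are given as descriptions. Every probe set that the array annotation paired with 1 of these symbols was taken. They numbered 12 of the 31099 on the array, with 2 each for Selenop, Gpx4 and Txnrd1 and 1 each for the other 6 genes. A probe set is a group of short probes that reads part of 1 transcript. Where a gene had 2, the one with the higher mean over the 4 arrays stood for the gene, and both are reported. On that basis the set was 9 of 14218 genes, and all 9 were among the 8802 that passed a floor on dim signal, meaning that at least 1 of the 4 arrays read 6 or higher on the log2 scale. Differences below are log2 differences between arrays unless a fold is named.

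The line was derived from tongue of a transgenic Wistar rat fetus aged 18 days. Its transgene, pSVtsA58ori(-)-2, which all 4 groups share, encodes large T antigen of SV40 in a temperature-sensitive form. This viral protein keeps cells dividing, and the temperature-sensitive form loses its function when cells are warmed. Cells were plated on collagen type I and grown at 33 °C for 24 h. They were then moved to 37 °C for 0, 3, 6 or 9 days, and day 0 is the control. The medium of every group was DMEM/F12 with 2% fetal bovine serum, 10 ng/ml EGF and a 1% supplement of insulin, transferrin, ethanolamine and sodium selenite, the last at 9.14 µg/l per the labels, so selenium was added to all groups. RNA of each day went onto 1 Affymetrix rat array. There were no replicates, so each difference compares 2 arrays with no p-value, and a day's effect cannot be told apart from that of its array. Fewer cells of a kind and less RNA per cell cannot be told apart either. Warming, any loss of T antigen function and time in culture changed together between day 0 and the later days, so these cannot be separated. The series addresses genes of epithelial differentiation in this 1 line.

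Selenoproteins contain selenocysteine, an amino acid with selenium in place of the sulphur of cysteine. It is inserted at a UGA codon, otherwise a stop signal, with the help of a hairpin in the message, a binding protein and a dedicated elongation factor. Most family members are redox enzymes. Glutathione peroxidases reduce peroxides, thioredoxin reductases recycle thioredoxin, and selenoprotein P carries selenium between cells. When selenium is short, cells keep some of these messages and let others decay, and Gpx1, Selenow and Selenoh are textbook examples of the second kind. Neither selenium nor any protein was measured here, and the part of selenium supply in the values below was not tested.

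The arrays as a whole were alike in distribution, with probe set medians of 5.22 to 5.24 on the log2 scale. The deposited values come from RMA, a processing that gives all arrays nearly the same distribution, so this likeness follows from it. All 10 epithelial markers, among them Krt5 and Krt14, exceeded on every array the brightest of the 27 probe sets for bacterial control sequences. That control read 4.19, 4.36, 4.51 and 4.56 on days 0, 3, 6 and 9. The median of the 8802 genes lay at -0.05, -0.18 and -0.14 against day 0 on days 3, 6 and 9. Hybridisation spike-ins, added to each array in a fixed amount, were 0.14, 0.39 and 0.63 higher than on day 0, so centring on them would lower every difference from day 0 by these amounts. The 3' probe set of beta-actin exceeded the 5' one by 2.25, 2.44, 1.22 and 2.35 on days 0, 3, 6 and 9. Day 6 stood apart on that measure, whose part in the day 6 values was not tested, while the same gap for GAPDH stayed between -0.02 and 0.18.

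Promoter windows are shown for 5 of the genes because they differ in how their messages moved and hold short elements known from selenoprotein and antioxidant gene control. Gpx1 is not among them because no element searched was found in its window. They are the 250 bases before an annotated RefSeq start in build GRCr8, on the gene's strand. RefSeq windows were found for all 9 genes, 13 windows in all. Capitals mark matches, on either strand, to GTAAACA (the core bound by FOXO factors), TGACNNNGC (the antioxidant response element core, bound by NRF2) or TATAAA (the TATA box). No match overlapped another. For Selenop and Txnrd1, which had 2 windows each, the one with a match is shown, and its start lies inside the bounds of the gene. In build GRCr8 Selenop spans bases 54225736 to 54236022 of chromosome 2 and Txnrd1 bases 22717620 to 22802553 of chromosome 7.

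Selenop, chr2:54225662-54225911, plus strand: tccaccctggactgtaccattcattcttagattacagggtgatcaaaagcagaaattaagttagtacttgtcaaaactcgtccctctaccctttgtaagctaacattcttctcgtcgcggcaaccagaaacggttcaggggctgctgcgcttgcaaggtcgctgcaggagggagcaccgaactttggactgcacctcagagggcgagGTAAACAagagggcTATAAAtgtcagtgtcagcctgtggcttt
Txnrd1, chr7:22755905-22756154, minus strand: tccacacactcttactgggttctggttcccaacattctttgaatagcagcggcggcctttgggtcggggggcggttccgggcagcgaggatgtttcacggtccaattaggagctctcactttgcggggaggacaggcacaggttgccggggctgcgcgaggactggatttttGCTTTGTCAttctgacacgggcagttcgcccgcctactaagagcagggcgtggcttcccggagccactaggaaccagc
Gpx2, chr6:101230034-101230283, minus strand: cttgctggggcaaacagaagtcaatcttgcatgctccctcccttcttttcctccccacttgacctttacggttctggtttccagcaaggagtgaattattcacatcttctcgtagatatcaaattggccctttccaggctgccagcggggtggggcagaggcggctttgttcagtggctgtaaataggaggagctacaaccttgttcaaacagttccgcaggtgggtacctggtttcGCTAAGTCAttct
Selenok, chr16:5158351-5158600, plus strand: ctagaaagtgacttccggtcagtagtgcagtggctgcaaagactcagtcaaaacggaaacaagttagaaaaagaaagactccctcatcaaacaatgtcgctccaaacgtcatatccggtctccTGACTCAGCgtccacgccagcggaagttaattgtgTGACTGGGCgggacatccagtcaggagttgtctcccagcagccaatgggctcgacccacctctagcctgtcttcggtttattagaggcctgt
Selenow, chr1:85732704-85732953, minus strand: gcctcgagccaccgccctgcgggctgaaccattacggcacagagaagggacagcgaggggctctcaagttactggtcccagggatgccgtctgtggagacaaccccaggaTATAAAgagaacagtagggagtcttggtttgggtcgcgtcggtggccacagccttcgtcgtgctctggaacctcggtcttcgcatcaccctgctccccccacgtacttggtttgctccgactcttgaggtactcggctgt

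The search covered windows of 300 bases, from 250 before to 50 after each start. In the Selenop window GTAAACA began at position -43 and TATAAA at -29 from the start. This Selenop window was the only 1 of the 13 with GTAAACA, which 3.78% of 33365 rat windows of that length hold. The antioxidant element core lay in 3 of the 13 windows, at -78 in Txnrd1, -13 in Gpx2, and -127 and -92 in Selenok, against 12.1% of all windows. TATAAA was found in Selenop and, at -140, in Selenow, against 14.2% of all windows. The longer endoplasmic reticulum stress element was in 0 of the 13 windows, against 0.0659% of all. A match says only that these letters are present, and the part of these elements in the values below was not tested.

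Selenop was the 1 member with higher values on the later arrays than on day 0, and its difference was among the largest on the array. It encodes selenoprotein P, a secreted protein with several selenocysteines that is best known as the liver's selenium carrier in plasma. The probe set 1368806_at read 8.17 on day 0, 11.85 on day 3, 12.28 on day 6 and 11.75 on day 9 on the log2 scale. The day 0 array stood alone at the low end, and the 3 later arrays lay close together. Selenop was thus 12.8-fold higher on day 3, 17.2-fold on day 6 and 12.0-fold on day 9 than on day 0. Its difference ranked 4th, 5th and 9th from the top among 8802 genes on days 3, 6 and 9. Between day 6 and day 9 it moved by -0.53, which placed it 322nd from the bottom in that step, and day 9 lay at -0.10 against day 3. The other Selenop probe set, 1387339_at, read 2.53, 3.18, 3.81 and 3.52 and was not above the brightest control on any array, so it gives no fold. The higher values of the later arrays therefore rest on 1 of 2 probe sets.

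**Figure D1:**
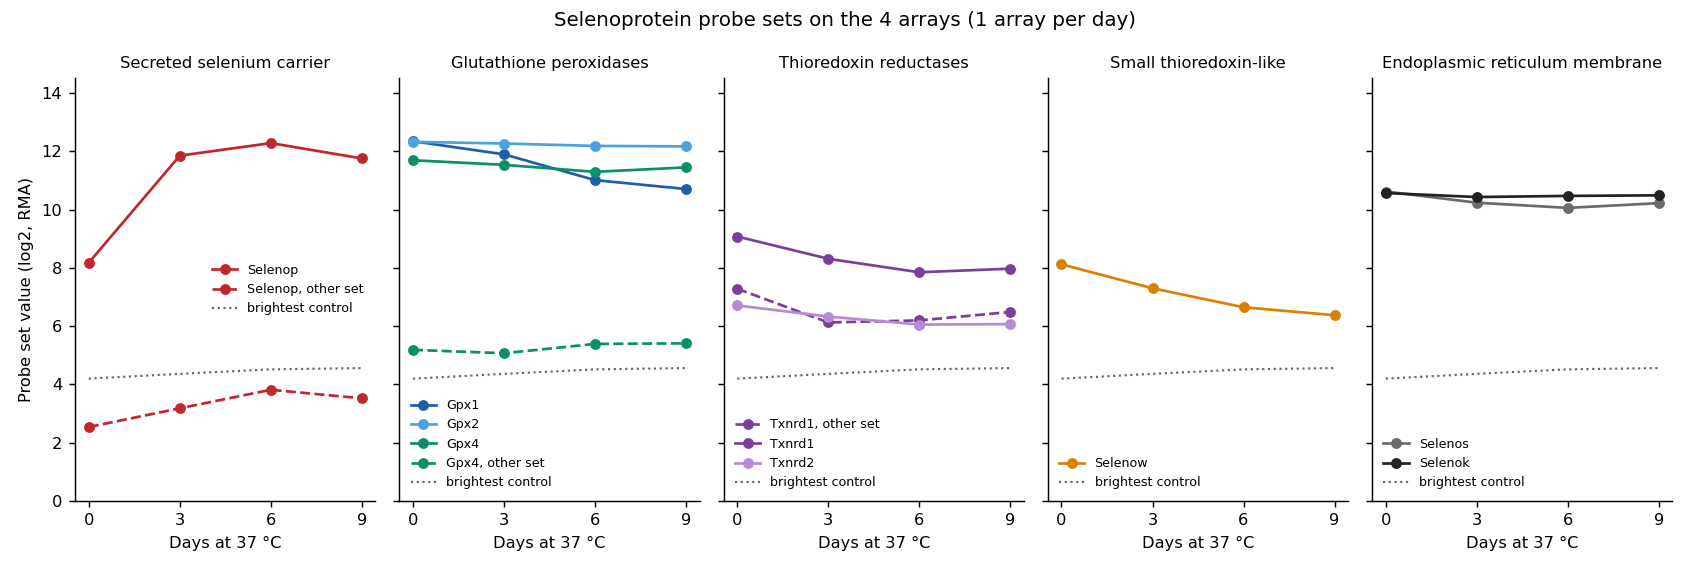
Log2 value of each selenoprotein probe set against days at 37 °C, 1 point per array, in panels by role. Dashed lines are the second probe set of a gene and the dotted line is the brightest bacterial control. Selenop goes from 8.17 to 12.28, Gpx1 and Selenow fall at each step, and Gpx2 and Selenok stay within 0.16 and 0.14. Both Txnrd1 sets are highest on day 0 and rise from day 6 to day 9.

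The glutathione peroxidases parted from one another. Gpx1, the cytosolic enzyme that reduces hydrogen peroxide, read 12.34, 11.89, 11.01 and 10.70 on days 0, 3, 6 and 9. Each array was lower than the one before it, with steps of -0.45, -0.88 and -0.31. Gpx1 was 1.37-fold lower on day 3, 2.52-fold on day 6 and 3.12-fold on day 9 than on day 0, and ranked 116th from the bottom of 8802 genes on day 9. It was also 2.28-fold lower on day 9 than on day 3. Gpx2, an enzyme typical of gut and other epithelia, read 12.32, 12.27, 12.18 and 12.17, a range of 0.16 over all 4 arrays. Its day 9 difference was -0.16. Gpx4, which reduces lipid peroxides within membranes and guards cells against ferroptosis, read 11.69, 11.53, 11.29 and 11.45 in probe set 1386871_at. Its lowest array was day 6, at -0.40, and day 9 was at -0.24. The second Gpx4 probe set, 1391529_at, read 5.18, 5.07, 5.39 and 5.40, and its day 9 difference was 0.22. The 2 Gpx4 probe sets therefore differed in sign on days 6 and 9, with neither near 2-fold.

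The thioredoxin reductases were lower on the later arrays, and the size depended on the probe set for Txnrd1. Txnrd1, the cytosolic reductase that keeps thioredoxin reduced and a known NRF2 target, read 9.07, 8.31, 7.85 and 7.97 in probe set 1398791_at. Day 0 was the highest array and day 6 the lowest, with differences from day 0 of -0.76, -1.23 and -1.10. Its second probe set, 1386958_at, read 7.28, 6.12, 6.19 and 6.48. That set was already 2.23-fold lower on day 3, 2.12-fold on day 6 and 1.74-fold on day 9. Both probe sets put day 0 highest, but 1 placed the low point on day 6 and the other on day 3, and they fell on different sides of 2-fold on days 3 and 9. Over 1624 genes with 2 probe sets above the floor, the median gap between the sets was 0.18 on day 3 and 0.36 on day 9. Txnrd2, the mitochondrial reductase, read 6.71, 6.32, 6.05 and 6.07, close to the floor of 6, and its differences of -0.38, -0.65 and -0.64 stayed under 2-fold.

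Selenow had the lowest day 9 difference of the set, -1.75. It encodes selenoprotein W, a small thioredoxin-like protein abundant in muscle and found in many tissues. Its probe set, 1367593_at, read 8.12 on day 0, 7.30 on day 3, 6.64 on day 6 and 6.37 on day 9. Every array was lower than the one before it, as for Gpx1, with steps of -0.82, -0.65 and -0.27. Selenow was 1.77-fold, 2.78-fold and 3.36-fold lower than on day 0 on days 3, 6 and 9. It ranked 350th, 204th and 92nd from the bottom of 8802 genes.

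The 2 selenoproteins of the endoplasmic reticulum membrane stayed under 2-fold as deposited. Selenos, which helps draw misfolded proteins out of the endoplasmic reticulum for degradation, read 10.62, 10.23, 10.06 and 10.22. Its differences from day 0 were -0.38, -0.56 and -0.40, beside a median size of 0.28, 0.41 and 0.38 over all genes. Selenok, a small membrane protein that works with a palmitoyltransferase and with the same degradation machinery, read 10.57, 10.43, 10.47 and 10.49. Its 4 arrays spanned 0.14, the narrowest range of the 9 genes.

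With 2-fold taken as the size that counts as a difference, 1 of the 9 genes was higher and 0 were lower on day 3 than on day 0. Across all 8802 genes 4.31% were higher and 2.15% lower in that comparison. On day 6 and on day 9, 1 was higher (Selenop) and 3 were lower (Gpx1, Selenow and Txnrd1). The background shares were 5.74% higher and 8.08% lower on day 6, and 5.57% higher and 6.25% lower on day 9. The other 5 genes were under 2-fold on all 3 days. Since the set was chosen with these results known, nothing is read from its share against the background.

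For Selenop, Gpx1, Selenow and Txnrd1 most of the net day 9 difference was present by day 6. By day 3 the share was 103% for Selenop and 69.3% for the brighter Txnrd1 set. It was 47.1% for Selenow and 27.5% for Gpx1. From day 3 to day 6, 0 of the 9 genes were 2-fold apart in either direction, against 0.829% higher and 1.6% lower of all genes. In that step 7 of the 9 differences were below 0, as were 65.9% of those of all genes. From day 6 to day 9, again 0 were 2-fold apart, against 0.25% higher and 0.591% lower, and 4 of the 9 differences were below 0, beside 42.1% over all genes. From day 3 to day 9, 1 gene, Gpx1, was lower and 0 were higher, against 3.66% lower and 1.74% higher. In the probe set used for each gene, all 8 genes other than Selenop had values below day 0 on each later array. The second Gpx4 set was above day 0 on days 6 and 9, at 0.20 and 0.22. The median of the 9 was -0.38, -0.56 and -0.40 on days 3, 6 and 9, beside -0.05, -0.18 and -0.14 for all genes, of which 55.8%, 62.7% and 61.0% were below 0.

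Scaling bears on both the small differences and the 2-fold calls. Centring on the median gene adds 0.02, 0.16 and 0.11 on days 3, 6 and 9. Gpx2 on day 6 and Selenok on days 6 and 9 then turned to 0.02, 0.06 and 0.03, and Txnrd1 on day 9 was at -0.9965, just under 2-fold. With arrays centred on the median level of 10 housekeeping genes, which shifts all values up by 0.89, 1.27 and 0.83, only Selenop kept 2-fold on day 9 and 3 of the 9 genes were 2-fold higher and 0 lower on day 6. Of all genes, 28.4% were 2-fold higher on day 9 and 56.6% on day 6 on that scale, so the 3 of 9 are below the background share. Txnrd1 was then at 0.04 on day 6. Gpx1 lay at 0.44, -0.07 and -0.81 on days 3, 6 and 9, and Selenow at 0.07, -0.20 and -0.91, so both were above day 0 on day 3 and under 2-fold on all 3 days. That list was itself uneven. Gusb, a lysosomal enzyme, lay at -1.15 and Tfrc, the transferrin receptor, at -1.41 on day 9. Centring by the median difference of the same 10 genes shifts values by 0.30, 0.35 and 0.21. Txnrd1 was then under 2-fold on days 6 and 9, at -0.88 and -0.90, and Gpx1 on day 6, at -0.99. Selenow kept 2-fold on both days, at -1.13 and -1.54, and Gpx1 on day 9, at -1.44. On the spike-in scale 5 of the 9 genes were 2-fold lower on day 9, Txnrd2 and Selenos among them, at -1.27 and -1.03, while 33.1% of all genes were 2-fold lower on that scale, against 6.25% as deposited. Selenop stayed over 2-fold higher on days 3, 6 and 9 under every scaling tried. Of all genes called on day 6, 58.5% were lower, against 39.4% with median centring, 88.3% with spike-in centring and 0.7% with the housekeeping level. On day 9 these shares were 52.9%, 41.4%, 94.4% and 2.9%.

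**Figure D2:**
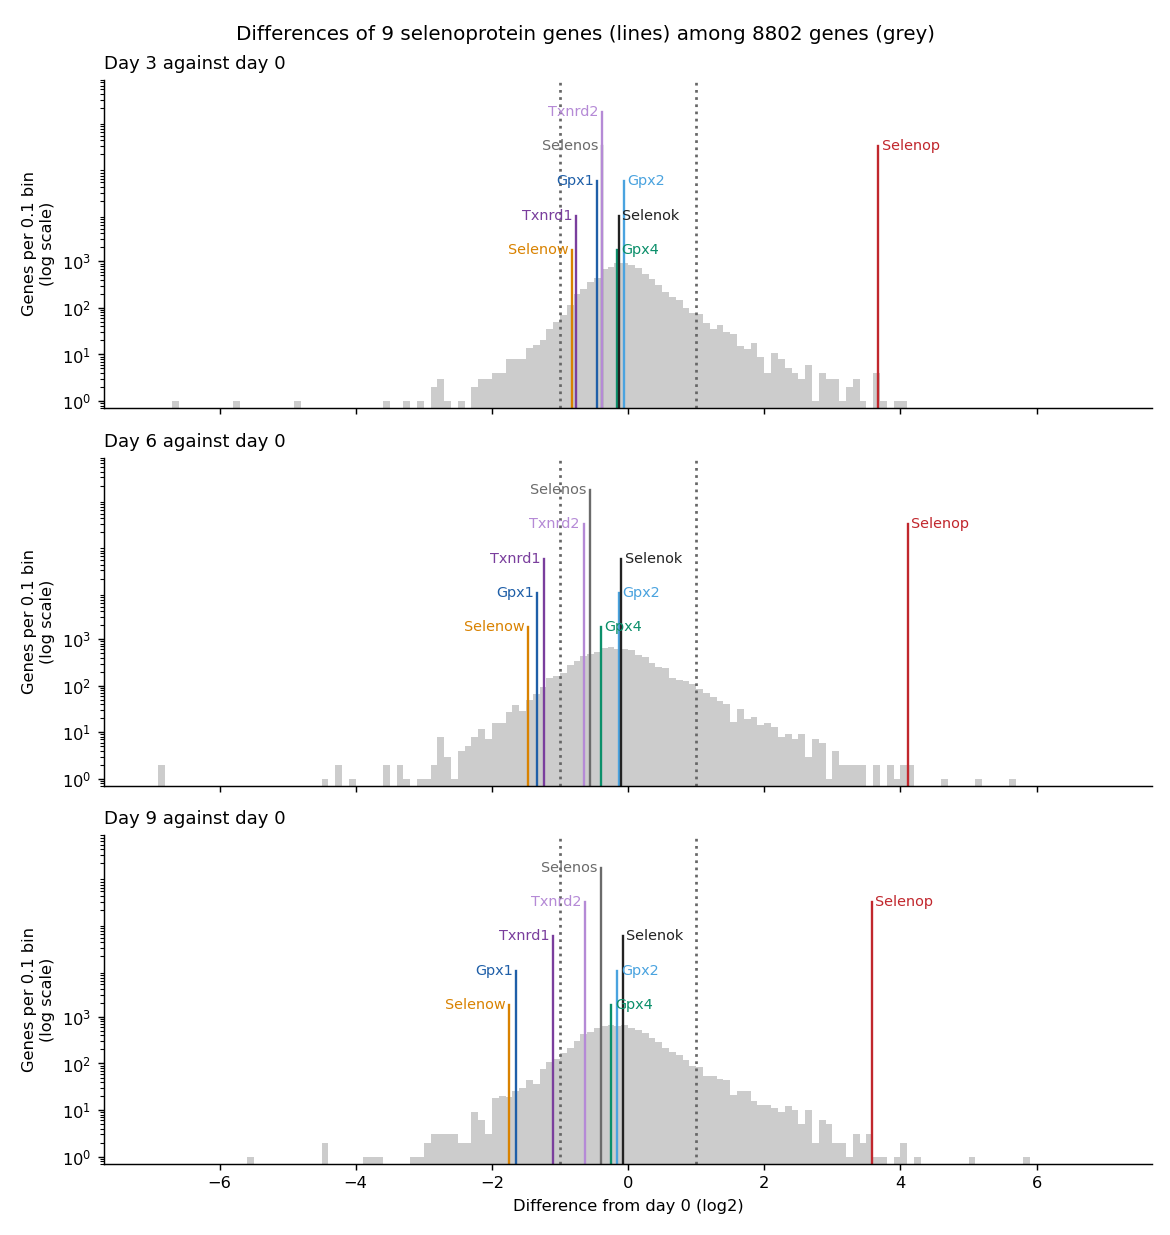
Difference from day 0 (log2) of the 9 genes, as coloured lines, over a histogram of 8802 genes in bins of 0.1 with a log count axis, for days 3, 6 and 9. Line heights only separate the labels, and dotted lines mark 2-fold. Selenop lies far to the right on all 3 days, while Selenow, Gpx1 and Txnrd1 pass the left dotted line on days 6 and 9.

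The rest of the selenoprotein family, taken whole, gave a similar spread without a second gene like Selenop. Of 15 other family genes, 13 had a probe set and 9 were above the floor. On days 3, 6 and 9, 0 were 2-fold higher, and 0, 2 and 2 were lower, with medians of -0.37, -0.62 and -0.38. The 2 lower genes were Selenoh and Selenon. Selenoh, a nucleolar redox protein, read 10.77, 9.89, 9.13 and 9.06, lower on each array than on the one before, and lay at -1.71 on day 9. Selenon, an endoplasmic reticulum protein needed in muscle, read 8.11, 7.47, 6.88 and 6.83 and lay at -1.27 on day 9. Of the others above the floor, Selenom had the highest day 9 difference, 0.72, and Txnrd3 the lowest, -0.86. The deiodinase genes Dio1, Dio2 and Dio3, which activate or inactivate thyroid hormone, were not above the brightest control on any array. Gpx3, the plasma glutathione peroxidase, read between 4.76 and 5.30. Over the 24 family genes together, 18 were above the floor, and 1 was higher and 5 lower on day 9, with 16 below 0 and a median of -0.39. Over all genes 5.57% were higher, 6.25% lower and 61.0% below 0 on that day, with a median of -0.14. On days 3 and 6 the shares over all genes were 4.31% and 5.74% higher and 2.15% and 8.08% lower.

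Genes that make and insert selenocysteine were mostly under 2-fold. Of 12 genes listed, 10 were above the floor, and 0 were 2-fold apart on days 3 and 6. On day 9, 1 was lower and 0 were higher, with a median of -0.18. The lower gene was Pstk, the kinase that primes the selenocysteine transfer RNA, which read 7.51, 7.54, 6.81 and 6.44. Over all genes 4.31%, 5.74% and 5.57% were higher and 2.15%, 8.08% and 6.25% lower on days 3, 6 and 9. Secisbp2, which binds the hairpin in selenoprotein messages, differed by 0.01 on day 9, and Eefsec, the elongation factor, by 0.02. Scly, the lyase that frees selenium from selenocysteine, was at -0.68. Lrp8, the receptor that takes up selenoprotein P in brain and testis, read 6.84, 6.44, 5.40 and 6.13. It was 2-fold lower on day 6, at -1.44, and not on day 9, at -0.71. Lrp2, the kidney receptor, read 4.13 to 4.42 and was above the brightest control on 1 array only.

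The partners of these enzymes had members on both sides of day 0. Of 10 measured thioredoxin partners 1 was higher on days 3 and 6 and 0 on day 9, and 0 were lower, with a day 9 median of 0.02. The 1 gene was Txnip, the thioredoxin inhibitor, at 10.35, 12.19, 12.03 and 11.23. Txn1, the thioredoxin that Txnrd1 reduces, read 13.86 to 13.97. In the glutathione list, 9 of 10 genes were above the floor. On days 3, 6 and 9, 1, 2 and 0 were higher and 0, 2 and 1 lower. The shares over all genes on these days were 4.31%, 5.74% and 5.57% higher and 2.15%, 8.08% and 6.25% lower. Slc7a11, the cystine importer, read 7.11, 9.96, 8.63 and 7.70, highest on day 3. Gclm, the modifier subunit of the enzyme that starts glutathione synthesis, was at 0.89, 1.45 and 0.98, and Gss, the enzyme that ends it, at -0.82, -1.33 and -0.93. Gpx8, a family member of the endoplasmic reticulum with cysteine in place of selenocysteine, was at 0.27, -1.20 and -1.24. Of catalase and the superoxide dismutases 3 of 4 were above the floor, and 0 of these 3 were 2-fold apart from day 0 on any day. The fourth, Sod3, the extracellular superoxide dismutase, peaked just under the floor, at 3.51, 5.92, 5.83 and 4.68. Its day 0 value was not above the brightest control and its 3 later values were.

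Genes around Selenos, Selenok and Gpx4 were also mixed. All 12 measured genes of endoplasmic reticulum degradation were above the floor and 0 were 2-fold apart from day 0 on any day. Their day 9 values ran from -0.85 for Zdhhc6, the palmitoyltransferase that works with Selenok, to 0.65 for Sel1l, with a median of 0.24. Among 7 lipid peroxidation genes 5 were above the floor, with 2 higher and 1 lower on day 3, 2 and 2 on day 6, and 1 and 1 on day 9. Of all genes 4.31%, 5.74% and 5.57% were higher on these days and 2.15%, 8.08% and 6.25% lower. Gch1, which makes the lipid antioxidant tetrahydrobiopterin, read 7.20, 9.44, 9.38 and 9.05. Acsl4, which loads membranes with oxidisable fatty acids, read 10.57, 10.23, 9.31 and 9.30. Dhodh, a mitochondrial pyrimidine enzyme, was at -1.01, -1.16 and -0.63. Alox12, a lipoxygenase, read 6.04 and 5.79 on days 3 and 6 and was not above the brightest control on day 0.

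Of 8 factors known to act on selenoprotein genes, 1 was 2-fold higher on day 3, 1 on day 6 and 0 on day 9, and 0 were lower. All genes had 4.31%, 5.74% and 5.57% higher and 2.15%, 8.08% and 6.25% lower on days 3, 6 and 9. Atf6, a sensor of endoplasmic reticulum stress, was 1.10 higher on day 3, and Foxo3 was 1.02 higher on day 6. Foxo3 read 11.13, 11.99, 12.15 and 11.93, and Foxo1 read 6.99, 7.06, 7.83 and 7.65. Nfe2l2, which encodes NRF2, differed by 0.43, 0.20 and 0.12. The list's median was 0.33, 0.46 and 0.44 on days 3, 6 and 9.

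**Figure D3:**
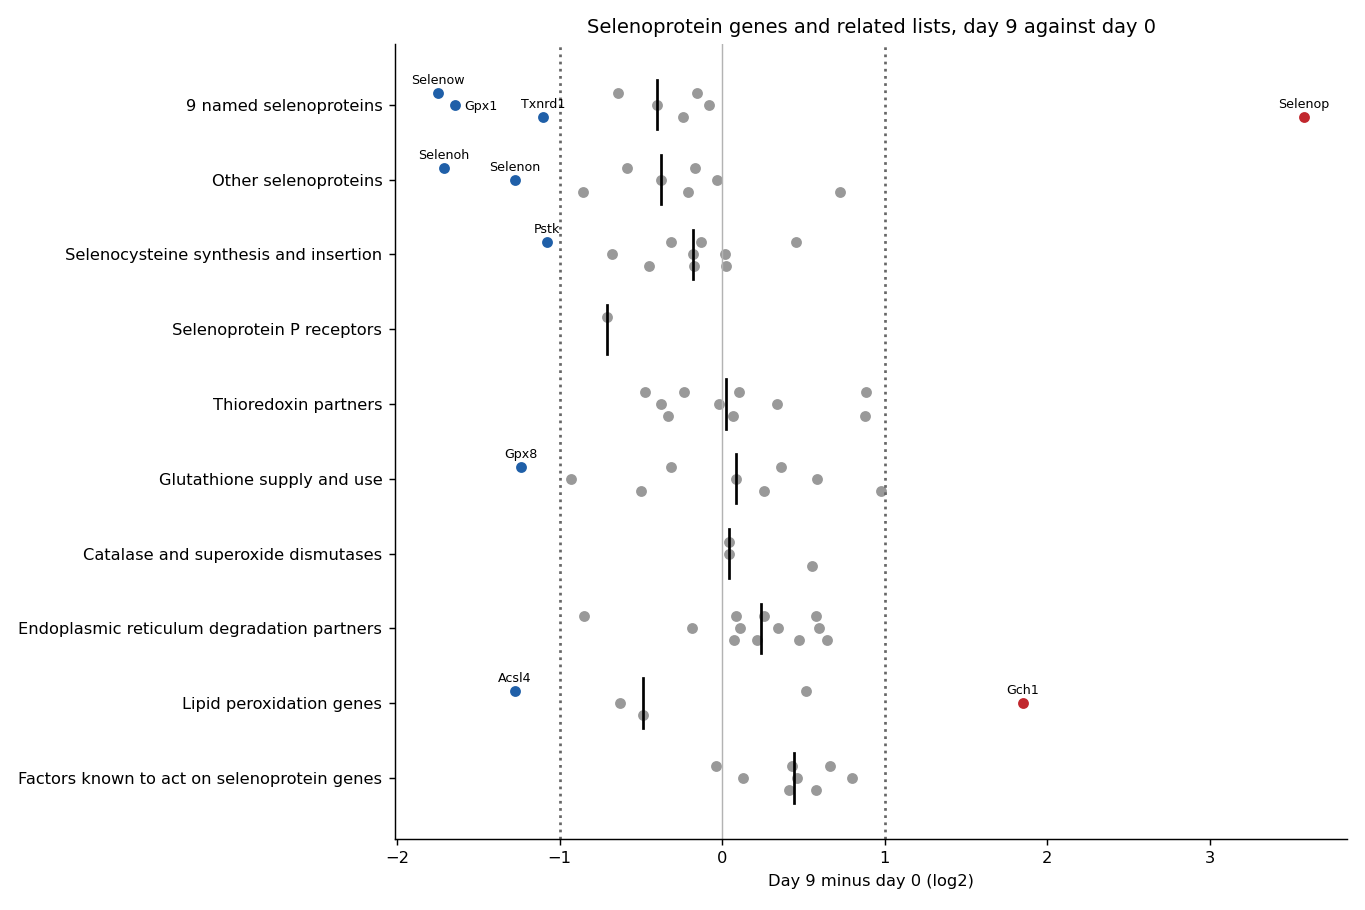
Day 9 minus day 0 (log2) of each gene above the floor, in rows by list, with the row median as a black bar and dotted lines at 2-fold. Red points are 2-fold or more higher and blue 2-fold or more lower. Selenop at 3.58 and Gch1 at 1.85 are the 2 red points.

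The genes whose differences from day 0 lay nearest to a member over days 3, 6 and 9 were found by the largest of the 3 gaps on the log2 scale. The measure covers 3 differences that share the day 0 array. Nearest to Selenop was Krt23, a keratin gene, with a gap of 0.22 and values of 7.60, 11.06, 11.62 and 11.28. Klk8, a kallikrein protease, came next at 0.52, though its day 0 value of 3.25 was not above the brightest control, and C20h6orf15 was at 0.61. Extl3, a heparan sulphate enzyme, was nearest to Gpx1 with a gap of 0.11, followed by Tut4 at 0.14 and Dbn1 at 0.15. Nearest to Selenow were Bid at 0.10, Ctso at 0.12 and Tmem250 at 0.15, and nearest to Txnrd1 were Wwc2, LOC102555217 and Gpr15lg, at 0.05, 0.05 and 0.06.

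Markers of other cell types were looked at because liver, immune cells and muscle express some of these genes strongly. Of 5 measured hepatocyte markers 3, Alb, Apoa1 and Fgb, were not above the brightest control on any array. Serpina1, a protease inhibitor of liver that is also made elsewhere, moved with Selenop, at 5.75, 7.38, 8.30 and 7.16, and Ttr read 5.48 to 5.74. The summed linear signal of the 5 was 135 on day 0, 244 on day 3, 390 on day 6 and 227 on day 9. Serpina1 was the only 1 of the 5 above the floor. The other 4 differed from day 0 by -0.33 to 0.10 on day 6. Of 6 immune markers Ptprc, Itgam and Cd3e were not above the brightest control on any array, and Cd68, a lysosomal protein gene, went from 5.32 to 6.54 on day 3. Below the floor, Aif1, at 4.55 to 4.77, was above that control on 4 arrays and Lyz2, at 4.31 to 4.64, on 2. The summed signal of the 6 was 115 on day 0 and 148 to 162 later. Cd68 was the only 1 of the 6 above the floor, and the other 5 differed from day 0 by -0.33 to 0.13 on day 3. All 8 fibroblast markers were below the floor on every array, 6 of them not above the control, with sums of 102 to 110. So were all 5 measured endothelial markers (4 not above the control, sums of 44 to 55) and all 6 muscle markers (4 not above it, sums of 119 to 141). The part of Serpina1 and Cd68 in the Selenop values was not tested.

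**Figure D4:**
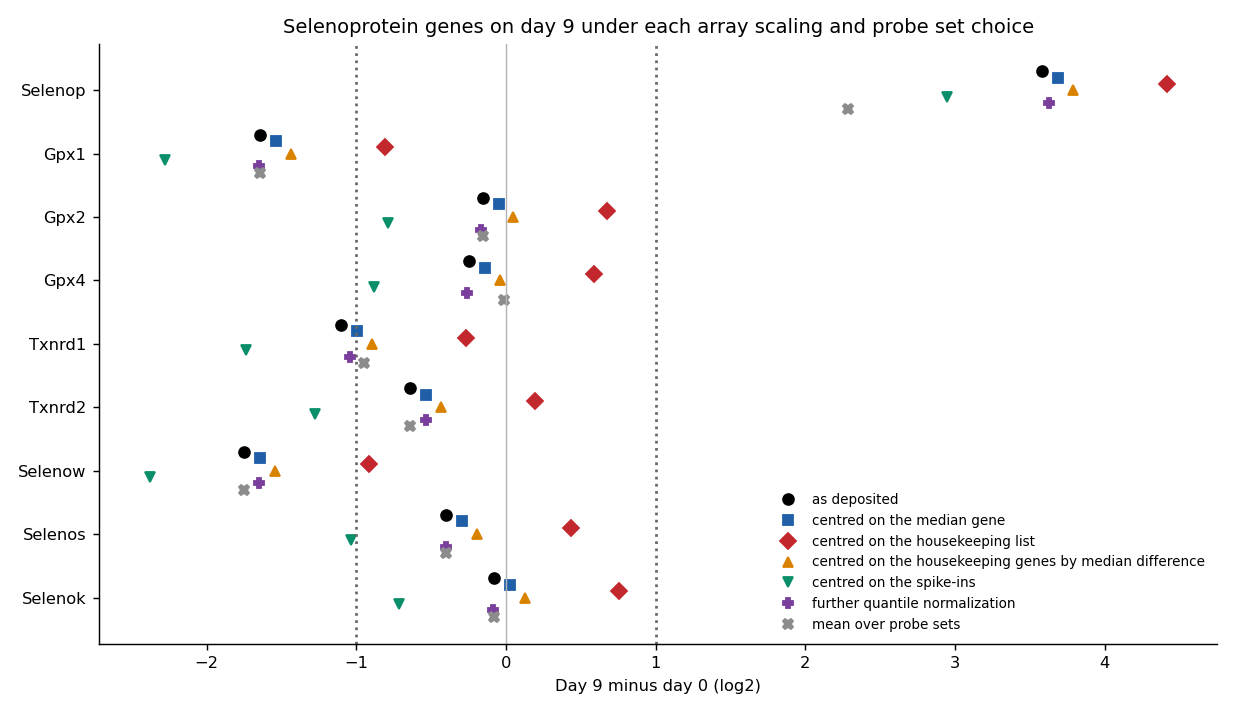
Day 9 minus day 0 (log2) of each of the 9 genes as deposited (black circles) and under 5 other array scalings and as a mean of all probe sets of the gene, with dotted lines at 2-fold. Selenop lies right of 2-fold throughout, Gpx1 and Selenow left of 0 on this day, and Gpx2, Gpx4, Txnrd2, Selenos and Selenok lie on both sides of 0. The means for Selenop and Gpx4 take in a second probe set under the floor.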

How the data were processed

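RNA of ROE2 cells was measured on 4 arrays, 1 per day. Per the submitters' processing notes the authors used RMA, and the deposited table holds its output, 1 log2 value per probe set and array. RMA corrects background, gives all arrays nearly the same distribution and summarises each probe set, so it hides shifts shared by all transcripts. Software and settings of that step were not stated in the sources used. Values from 1.55 to 14.2 point to log base 2, which no source names. cRNA came from 500 ng of total RNA with integrity numbers of 9.5 to 10, per the labels. The number of arrays limits the precision.

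From these, log2 differences between arrays were computed. The annotation gave 1 symbol for 20832 probe sets, several for 436 and none for 9831. All 12 probe sets of the selenoproteins carried an ID without a mark of cross-hybridisation. Calls were made at 2-fold or more, among the 61.9% of genes that reached 6 on the log2 scale on any array. A run on simulated arrays, with noise set from the difference between the day 6 and day 9 arrays, checked only that the rule worked as written. It does not show how well 1 array per day would repeat. The genes and lists were chosen with earlier results of these data known. Genes named are all 9 selenoproteins, up to 4 of each list that were 2-fold apart from day 0 on any day (those largest on day 9), and the 3 nearest genes. Genes named outside that rule were chosen after their values were seen, or as background. Alternatives were other scalings, floors, fold sizes and probe set choices. Promoter windows are from RefSeq, GRCr8. Python 3.11.15, numpy 2.4.6, pandas 2.3.3 and matplotlib 3.10.9 were used.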

Additional observations from a re-analysis of the deposited data

How the results depend on the processing

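The counts of selenoproteins 2-fold apart were the same, or within 1.5 times, for all 6 pairs of days with floors of 5 and 8 and no floor, with unmarked probe set IDs, with the mean over probe sets, with a further quantile normalization and with median centring. Centring on the housekeeping level left 1 gene apart on day 9 against day 0, in place of 4, and turned Txnrd1 on day 6 to 0.0412. On that scale 29.3% of all genes were 2-fold apart on day 9. Centring by the median difference of the housekeeping genes, chosen after seeing the data, left 2 on day 6 against day 0 and gave 2 on day 9 against day 3. Over all genes the shares apart were 13.9% and 6.01%. Spike-in centring gave 1 on day 6 against day 3 and 2 on day 9 against day 3. There 4.74% and 15.5% of all genes were apart. At 1.5-fold there were 3 on day 3 against day 0, 2 on day 6 against day 3 and 2 on day 9 against day 3. Of all genes 20.2%, 12.6% and 18.1% were apart at that size. At 3-fold there was 1 on day 6 against day 0 and 0 on day 9 against day 3, beside 4.04% and 1.27% of all genes. The changed counts follow from the shift or the threshold itself. With the mean over probe sets Txnrd1 was at -0.95 on day 9. No paired analysis was possible because each day has 1 array. Dim probe sets, such as the second ones of Selenop and Gpx4, limit what can be said of a second reading.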

Other observations

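In the lists around the selenoproteins, 20 further probe sets of 18 genes were above the floor beside the brighter one used for the gene. The 2-fold call differed between the 2 readings on at least 1 day for 6 of them, which were singled out after their values were seen. The second set of Srxn1, the sulfiredoxin that repairs peroxiredoxins, was at 1.21, 1.66 and 1.63 on days 3, 6 and 9, against 0.79, 0.60 and 0.89 in the first. The second set of Secisbp2l, a relative of the hairpin-binding protein, was at 0.34 on day 3 and 1.93 on day 6, from a day 0 value of 4.17 that was not above the brightest control, against 0.28 and 0.32. For Nploc4, a cofactor of the degradation ATPase that Selenos recruits, the second set was at -0.01, 0.72 and 1.44, against -0.35, 0.02 and 0.35. Glrx2, the mitochondrial glutaredoxin, was at -1.02, -1.13 and -0.69 in the second set, against -0.03, -0.28 and 0.08. Gclc, the catalytic subunit of the first glutathione enzyme, was at 0.59, 1.15 and 0.74, against 0.72, 0.36 and 0.26. Tp63 was at 1.18, 1.47 and 1.07, against 0.77, 0.70 and 0.41.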
